A study of Mus musculus with 18 samples.

Results

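Smooth muscle cells contract through a dedicated set of cytoskeletal proteins, and 10 of their genes were followed here in mesenchymal progenitor cells (MPCs) with and without *Atrx*: the actins *Acta2* and *Actg2*, the myosin chains *Myh11* and *Myl9*, the tropomyosins *Tpm1* and *Tpm2*, the actin-binding genes *Tagln* and *Cnn1*, the leiomodin *Lmod1* and the intermediate filament gene *Des*. They were chosen by symbol from textbook smooth muscle genes, with earlier results of these data known. All 10 were matched by Entrez identifier among the 24100 genes of each table of counts. The study asked how loss of ATRX, a chromatin remodeler that loads histone H3.3 at repeats and heterochromatin, affects the identity of these progenitors, and RNA was sequenced without a differentiation treatment named in the sample labels. The cells were C3H/10T1/2, a mouse embryonic fibroblast line used as an MPC model that can be driven toward several mesenchymal lineages.

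The *Atrx* WT group was a line that received the Cas9 vector with no sgRNA, so both WT and KO cells had been through the vector. The KO groups were 1 clone made with sgRNA 5 (sg5, clone G7) and 1 clone made with sgRNA 6 (sg6, clone B10). Each group gave 3 polyA-selected and 3 rRNA-depleted libraries, 18 in all. Because each group was a single line, n = 3 counts libraries of a line, the p-values measure the spread between those libraries, and *Atrx* loss and any other difference between clones cannot be told apart. Both clones were compared with the same WT libraries.

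In smooth muscle, filaments of alpha and gamma smooth muscle actin slide along filaments of smooth muscle myosin when the regulatory light chain of the myosin is phosphorylated. Tropomyosins, calponin and transgelin lie along the actin filament, leiomodin starts new filaments and desmin joins the contractile bundles to the rest of the cell. Many of these genes carry CArG boxes near their start, the short elements bound by serum response factor with its myocardin-family partners, and several, *Acta2* above all, are also expressed in cultured fibroblasts and myofibroblasts, so a transcript of this set does not by itself name a smooth muscle cell.

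RefSeq promoter sequences of GRCm38.p6 (250 bases before to 50 bases after the start) were at hand for 7 of the 10 genes and not for *Tagln*, *Actg2* and *Myh11*. CArG boxes were searched for as 10-base elements, either exact or with 1 of the 6 middle bases changed. The element reads the same on both strands, so boxes were counted once, and the boxes found did not overlap. *Myl9*, which differed between the KO clones, and *Acta2*, which was upregulated in both, held 2 boxes each, and *Des*, *Lmod1*, *Tpm2*, *Cnn1* and *Tpm1* held none in this window. Of all 32851 promoters, 1.63% held an exact box, 9.98% held at least 1 box of either kind and 0.822% held 2 or more. The sequences are printed with the boxes in capitals because these are the shared element of the group; no binding was measured here, and their part in the results was not tested.
The *Myl9* stretch runs from its first box, exact and starting 161 bases before the start, to its second, with 1 middle base changed and starting 99 bases before it, on the plus strand at chr2:156775273-156775404.
*Myl9* promoter: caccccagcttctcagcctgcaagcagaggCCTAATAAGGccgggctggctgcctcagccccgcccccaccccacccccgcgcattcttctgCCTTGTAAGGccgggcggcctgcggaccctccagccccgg
For *Acta2*, on the minus strand, the boxes start 84 and 34 bases before the start used by RefSeq, each with 1 middle base changed. GENCODE places this stretch inside the first exon of a longer transcript, so only 30 bases around each box are given, at chr19:34255438-34255467 and chr19:34255388-34255417.
*Acta2* box 1: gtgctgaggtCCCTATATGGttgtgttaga
*Acta2* box 2: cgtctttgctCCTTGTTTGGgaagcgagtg

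The polyA tables totalled 27544833 to 80772108 counts per WT library, 161036799 to 235346363 per sg5 library and 58918732 to 71896907 per sg6 library, and the rRNA-depleted libraries 20135336 to 33187136. *Atrx*, the targeted gene, did not overlap between WT and KO libraries and was lower in the latter, at 276 to 328 CPM in WT, 114 to 138 in the sg5 clone and 122 to 141 in sg6 polyA libraries, and 192 to 231, 60.8 to 112 and 75.6 to 101 in the rRNA-depleted ones. CPM are counts scaled to library size, after TMM factors. In the rRNA-depleted set, sg5 replicate 1 stood apart from the other sg5 libraries (chi-square per gene 85.1 and 88.1, against 27.1 between replicates 2 and 3). The sg5 values against WT from that set are therefore also given without it. This library had the highest *Atrx* of the sg5 libraries and the lowest *Acta2*, *Actg2* and *Tagln*. Leaving it out raises the sg5 values of these contractile genes by construction, so such fits add no support to them. Replicate 1 of sg6 stood apart as well (91.8 and 45.0, against 24.2), and leaving it out ended no call among the 10 genes in the set and added that of *Tagln* in sg5 against WT (log2 fold change 1.75, adjusted *p* = 0.0488, edgeR's quasi-likelihood test). Of the 10 genes, 9 passed edgeR's filter on low counts in polyA (*Cnn1* did not) and 8 in rRNA-depleted libraries (*Cnn1* and *Myh11* did not). In bulk RNA, more cells of a type and more RNA per cell cannot be told apart.

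A subset of the contractile genes, led by both smooth muscle actins, was called upregulated in the *Atrx* KO clones. In each comparison with WT, most of the tested genes were not called. In polyA libraries, 3 of the 9 tested genes were upregulated in sg5 (*Acta2*, *Actg2*, *Tagln*) and 0 downregulated, where 13.6% and 13.4% of all 15480 tested genes were called in those directions. In sg6, 4 were upregulated (the same 3 and *Myl9*) and 0 downregulated, against 16.1% and 14.6% of all tested genes. In rRNA-depleted libraries, 3 of 8 were upregulated in sg5 (*Acta2*, *Actg2*, *Tpm1*) and 0 downregulated, against 5.64% and 5.1% of 13303 tested genes, and 3 in sg6 (*Acta2*, *Actg2*, *Myl9*) with 0 downregulated, against 3.56% and 4.03%. Calls are at an adjusted *p* below 0.05 in edgeR's quasi-likelihood test, adjusted over every feature tested, and every one of these upregulated genes also passed a log2 fold change of 1. The set was chosen with earlier results of these data known, so its counts beside these shares give no independent support. At an unadjusted *p* below 0.05 in the same test, 4 of 9 genes were higher in sg5 and 5 in sg6 in polyA libraries. In rRNA-depleted libraries 4 of 8 were higher in sg5 and 6 in sg6. On the same measure, 1 gene was lower in sg5 (*Des*) and 0 in sg6 in polyA libraries, and 2 (*Des* and *Tpm2*) and 0 in rRNA-depleted ones. DESeq2 called 1 gene lower in sg5 polyA libraries (*Des*) and 0 in the other 3 comparisons. DESeq2 called 3 genes higher in sg5 and 4 in sg6 in polyA and 4 in each clone in rRNA-depleted libraries, where *Tagln* was added in sg5 and *Tpm1* in sg6. The median log2 fold change of the tested set was 0.16 in sg5 and 0.35 in sg6 for polyA and 0.86 and 0.83 for rRNA-depleted libraries, with −0.0024, −0.0061, 0.080 and 0.038 for all tested genes.

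**Figure D1:**
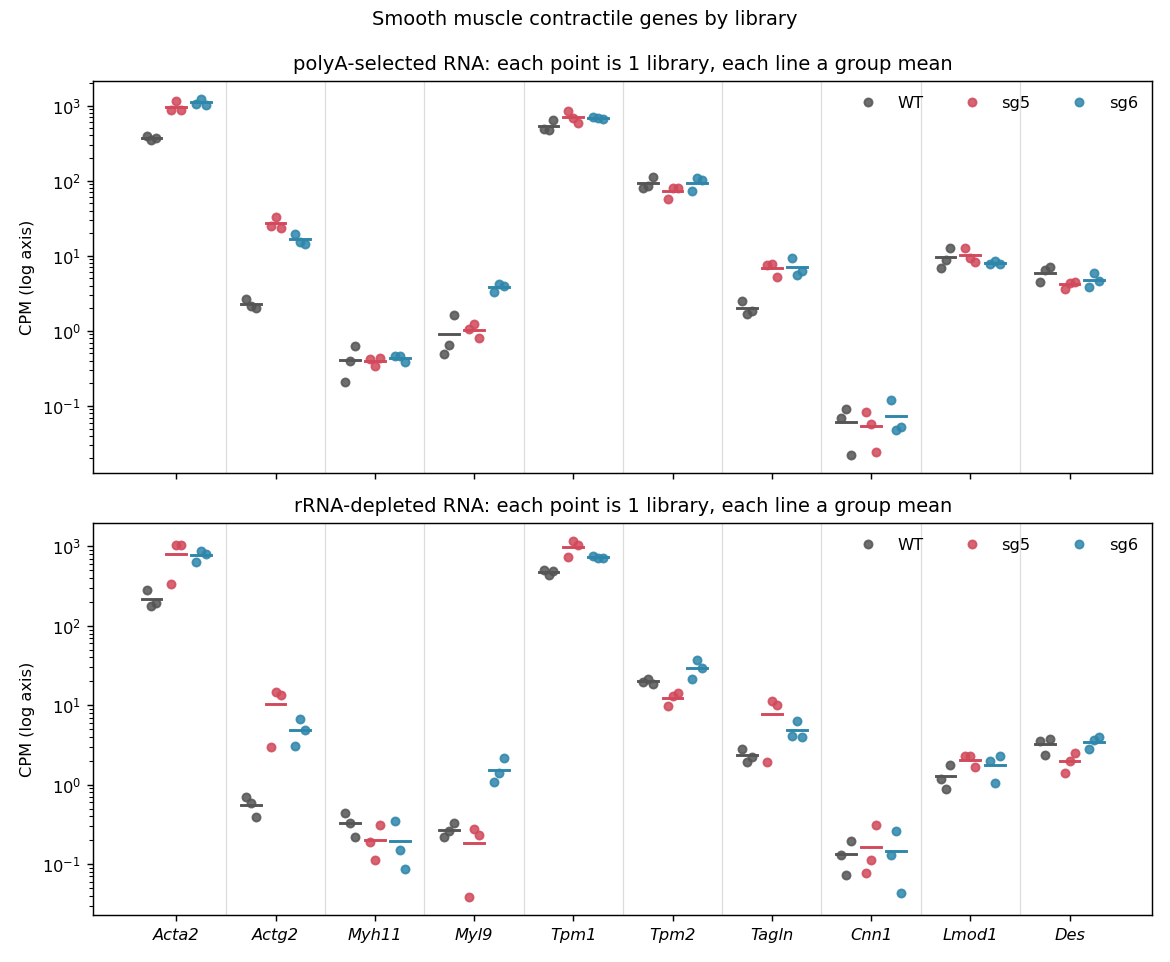
Level of the 10 genes in every library, in CPM on a log axis, for polyA-selected (upper panel) and rRNA-depleted RNA (lower panel). Points are the 3 libraries of WT, sg5 and sg6 and horizontal lines their means. *Acta2* and *Actg2* lie above WT in every KO library of both panels, *Myl9* lies above WT in the sg6 libraries of both, and *Cnn1* and *Myh11* stay below 1 CPM throughout.

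*Acta2* encodes alpha smooth muscle actin, the main actin of vascular smooth muscle, and lies on chromosome 19 (34241090 to 34255590, minus strand, GENCODE on GRCm38). In polyA libraries it measured 393, 352 and 368 CPM in WT, 879, 1165 and 869 in sg5 and 1048, 1231 and 1029.7 in sg6. Every KO library exceeded every WT library, and the clones overlapped. Against WT, edgeR gave a log2 fold change of 1.39 ± 0.13 (SE, adjusted *p* = 0.000112) in the sg5 clone and 1.57 ± 0.13 (SE, adjusted *p* = 4.85e-05) in the sg6 clone. In rRNA-depleted libraries, *Acta2* was at 279, 177 and 193 CPM in WT, 333, 1036 and 1047 in sg5 and 641, 875 and 799.9 in sg6. The groups again did not overlap, although sg5 replicate 1 came close to the highest WT library. Here the log2 fold changes were 1.90 ± 0.34 (SE, adjusted *p* = 0.00513) and 1.84 ± 0.34 (SE, adjusted *p* = 0.00738) in edgeR, and without sg5 replicate 1 the sg5 value was 2.30 (adjusted *p* = 5.91e-06). The sg6 call was lost without WT replicate 3 (1.75, adjusted *p* = 0.0615).

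*Actg2*, the gamma smooth muscle actin typical of gut and bladder wall, had the largest log2 fold change of the tested set in each comparison with WT. The gene lies on chromosome 6 (83512905 to 83536265, minus strand). Only 1.21% of its 31-base words and 1.39% of those of *Acta2* occurred in transcripts of other genes, so the 2 actins were counted largely from sequence of their own. The polyA level was 2.65, 2.17 and 2.05 CPM in WT, 24.7, 33.3 and 23.6 in sg5 and 19.8, 15.5 and 14.5 in sg6. The 3 groups did not overlap, with sg5 highest and WT lowest, and the log2 fold changes against WT were 3.58 ± 0.19 (SE, adjusted *p* = 5.18e-06) in sg5 and 2.87 ± 0.19 (SE, adjusted *p* = 1.40e-05) in sg6, 12.0-fold and 7.31-fold. In the rRNA-depleted libraries *Actg2* was near the limit of the filter in WT, with 14 to 16 counts per library or 0.701, 0.590 and 0.390 CPM, and reached 2.96, 14.7 and 13.5 CPM in sg5 and 3.10, 6.63 and 4.86 in sg6. All KO libraries were above WT, at log2 fold changes of 4.22 ± 0.55 (SE, adjusted *p* = 0.000505) and 3.14 ± 0.54 (SE, adjusted *p* = 0.00490) in edgeR. Without sg5 replicate 1 the sg5 value was 4.71, and without WT replicate 3 the sg6 call was lost (2.90, adjusted *p* = 0.0512).

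The myosin genes divided. *Myh11*, the heavy chain of smooth muscle myosin and the most specific marker of the mature cell, stayed near the floor of detection, at 0.210 to 0.623 CPM in the 9 polyA libraries and 2 to 10 counts in each rRNA-depleted library. Its groups overlapped, and the polyA log2 fold changes were −0.08 (95% confidence interval −0.77 to 0.61) in sg5 and 0.05 (−0.68 to 0.78) in sg6. Changes within these intervals, which are before adjustment, are not excluded at this depth. *Myl9*, the regulatory light chain whose phosphorylation starts contraction, differed between the clones. It lies on chromosome 2 (156775420 to 156781658, plus strand) behind the promoter printed above. PolyA libraries held 0.489, 0.641 and 1.62 CPM in WT, 1.05, 1.23 and 0.814 in sg5 and 3.27, 4.19 and 4.01 in sg6. The sg6 libraries were all above the rest, whereas sg5 lay within the WT range. The log2 fold change was 2.05 in sg6 (SE 0.39, adjusted *p* = 0.00379) and 0.16 in sg5 (SE 0.38, adjusted *p* = 0.787) in edgeR. Without WT replicate 3, the highest WT library, these were 2.72 (adjusted *p* = 0.000253) and 0.83 (adjusted *p* = 0.0516).

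*Myl9* kept this pattern in the rRNA-depleted libraries at lower counts. They held 5, 7 and 12 counts in WT, 1, 5 and 6 in sg5 and 25, 38 and 49 in sg6, or 0.219 to 0.334, 0.0385 to 0.279 and 1.08 to 2.15 CPM. The sg6 libraries again did not overlap with the others. The log2 fold change was 2.47 ± 0.49 (SE, adjusted *p* = 0.0119) in sg6 and −0.64 ± 0.60 (SE, adjusted *p* = 0.658) in sg5, by edgeR, and the sg5 value was −0.083 (adjusted *p* = 0.972) without sg5 replicate 1. The sg6 call was lost without WT replicate 1 (adjusted *p* = 0.0522), WT replicate 3 (0.0554) or sg6 replicate 3 (0.0641).

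The tropomyosins were the most abundant members beside *Acta2*. *Tpm1* (chromosome 9, 67022590 to 67049406, minus strand) has 21 annotated transcripts, of smooth, striated and nonmuscle forms, which gene counts do not separate. Its polyA level was 485, 480 and 641 CPM in WT, 837, 678 and 595 in sg5 and 706, 677 and 668 in sg6. The sg6 libraries lay above WT and the sg5 libraries overlapped with it. The sg5 value of 0.39 (adjusted *p* = 0.0782) and the sg6 value of 0.35 (adjusted *p* = 0.102) on the log2 scale missed the threshold of edgeR's test, but both passed without WT replicate 3 (0.54 and 0.50, adjusted *p* = 0.0231 and 0.0258), and the sg5 value also without sg5 replicate 3 (0.50, adjusted *p* = 0.0495). In the rRNA-depleted libraries *Tpm1* measured 508, 439.5 and 493 CPM in WT, 726, 1173 and 1052 in sg5 and 748, 726 and 713 in sg6. Every KO library exceeded WT, by a log2 fold change of 1.03 ± 0.16 (SE, adjusted *p* = 0.00232) in sg5 and 0.60 ± 0.16 (SE, adjusted *p* = 0.0741) in sg6, and the sg5 value was 1.25 (adjusted *p* = 0.000133) without sg5 replicate 1. With the replicate number as a block, which pairs these WT and sg6 libraries, the sg6 value passed (0.60, adjusted *p* = 0.0456), as it did without sg5 replicate 1 (0.64, adjusted *p* = 0.0155), with only WT and sg6 fitted (0.62, adjusted *p* = 0.0253) and in DESeq2 (0.65, adjusted *p* = 0.0438).

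*Tpm2*, the beta tropomyosin (chromosome 4, 43514711 to 43523765, minus strand), passed in neither clone against WT. It was at 79.02, 84.7 and 112 CPM in WT polyA libraries, 57.5, 80.5 and 79.4 in sg5 and 73.6, 107 and 102 in sg6, and all 3 groups overlapped. In rRNA-depleted libraries it measured 19.9, 21.5 and 18.6 CPM in WT, 9.93, 13.2 and 14.2 in sg5 and 21.2, 37.0 and 29.6 in sg6. The sg5 libraries were all below WT (log2 fold change −0.68, adjusted *p* = 0.0990 in edgeR, and −0.51, adjusted *p* = 0.308, without sg5 replicate 1), and the sg6 libraries overlapped with WT (0.55, adjusted *p* = 0.251).

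*Tagln* encodes transgelin (SM22 alpha), an actin-bundling protein that is among the earliest smooth muscle markers. It was at 2.48, 1.69 and 1.85 CPM in WT polyA libraries, 7.58, 7.78 and 5.19 in sg5 and 9.35, 5.51 and 6.22 in sg6. All KO libraries were above WT and the clones overlapped. The log2 fold changes were 1.79 ± 0.26 (SE, adjusted *p* = 0.00116) and 1.83 ± 0.26 (SE, adjusted *p* = 0.000917) in edgeR. *Tagln* (chromosome 9, 45929619 to 45936058, minus strand) overlaps *Pcsk7* and *Gm48529* on the opposite strand, and 62.2% of its 31-base words also occur in their transcripts, 58.2% in *Gm48529*. The strand setting of the counting was not given in the sources used here, so reads of these genes cannot be told apart. *Pcsk7*, looked up after its overlap was seen, was at 34.5 ± 2.75 CPM in WT polyA libraries (SD, n = 3), 34.5 ± 1.29 in those of sg5 and 34.7 ± 4.05 in sg6.

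In rRNA-depleted libraries *Tagln* was at 2.85, 1.95 and 2.23 CPM in WT, 1.92, 11.3 and 10.1 in sg5 and 4.14, 6.37 and 3.99 in sg6. Replicate 1 of sg5 was below every WT library while the other KO libraries were above WT. Neither clone passed, with log2 fold changes of 1.73 ± 0.48 (SE, adjusted *p* = 0.0673) in sg5 and 1.05 ± 0.48 (SE, adjusted *p* = 0.386) in sg6, from edgeR. Without sg5 replicate 1 both passed (2.22 and 1.09, adjusted *p* = 0.000163 and 0.0285), and without sg6 replicate 1 the sg5 value did (1.75, adjusted *p* = 0.0488). The sg5 value also passed in DESeq2 (1.77, adjusted *p* = 0.00533) and with no filter on low counts (1.75, adjusted *p* = 1.64e-05), and the sg6 value when only WT and sg6 were fitted (1.07, adjusted *p* = 0.0498). *Cnn1*, which encodes calponin 1 and is widely used as a marker of differentiated smooth muscle, held 1 to 13 counts per polyA library and 1 to 8 per rRNA-depleted library, was at most 0.118 and 0.309 CPM and was not tested.

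*Lmod1*, the smooth muscle leiomodin, measured 6.95, 8.89 and 12.9 CPM in WT polyA libraries, 12.8, 9.44 and 8.27 in sg5 and 7.80, 8.44 and 7.71 in sg6, and 0.885 to 2.32 CPM in the rRNA-depleted libraries. Its groups overlapped in both kinds of library, with log2 fold changes of 0.08 and −0.26 in polyA and 0.68 and 0.47 in rRNA-depleted libraries (adjusted *p* of 0.823, 0.425, 0.365 and 0.696 in edgeR). Without sg5 replicate 1 the rRNA-depleted sg5 value was 0.65 (adjusted *p* = 0.516). *Des*, the muscle intermediate filament, was at 4.47, 6.44 and 7.05 CPM in WT polyA libraries, 3.60, 4.40 and 4.47 in sg5 and 3.88, 5.88 and 4.63 in sg6. The sg5 libraries all lay below WT by a narrow margin (log2 fold change −0.53, adjusted *p* = 0.0914), and sg6 overlapped with it (−0.33, adjusted *p* = 0.280). Without WT replicate 1 the sg5 value passed (−0.69, adjusted *p* = 0.0267). In rRNA-depleted libraries *Des* ran from 1.42 to 4.03 CPM, at −0.72 (adjusted *p* = 0.230; −0.49 and 0.536 without sg5 replicate 1) in sg5 and 0.10 (adjusted *p* = 0.939) in sg6. *Des* overlaps *Gm15179* on the opposite strand, which holds 5.12% of its 31-base words.

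**Figure D2:**
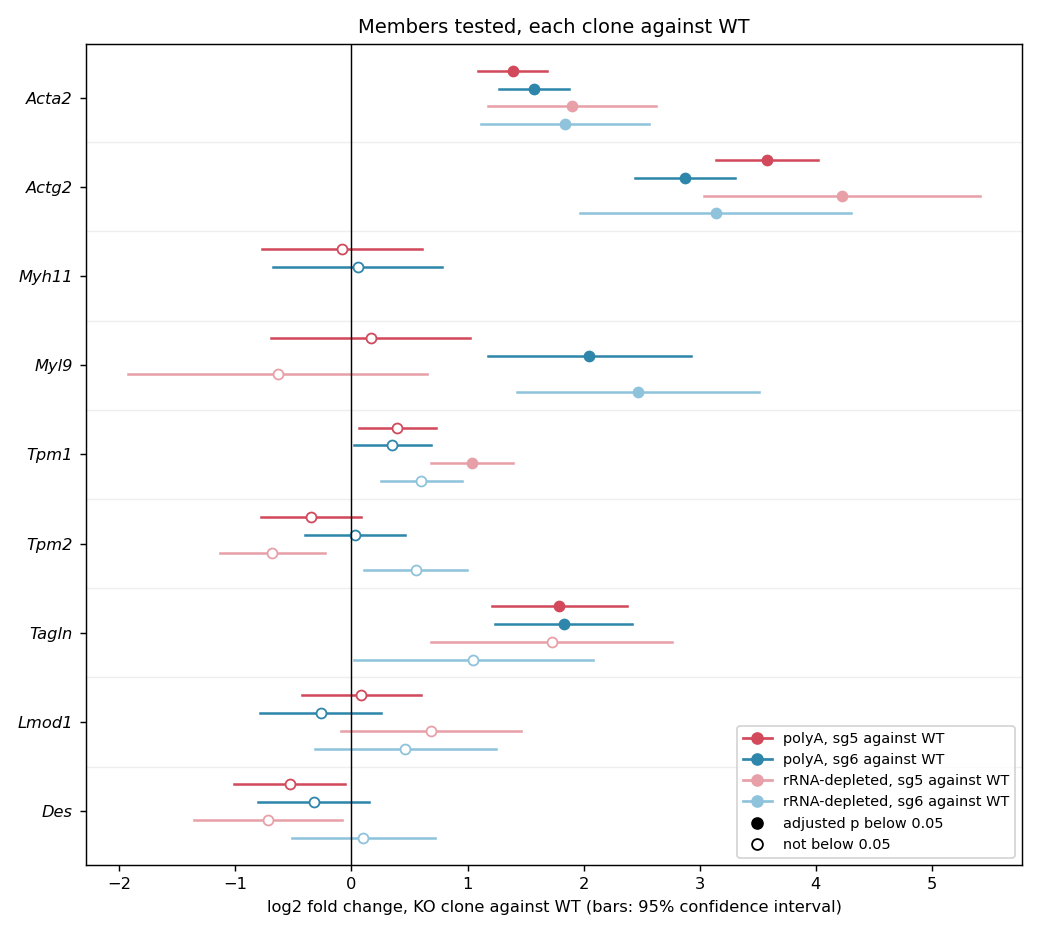
Log2 fold change of each tested gene in sg5 and sg6 against WT, in polyA and rRNA-depleted libraries. Bars are 95% confidence intervals before adjustment and filled points passed an adjusted *p* of 0.05. *Acta2* is filled in all 4 comparisons (1.39 to 1.90) and *Actg2* likewise (2.87 to 4.22), *Myl9* is filled for sg6 alone, and *Myh11*, *Tpm2*, *Lmod1* and *Des* are open throughout.

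Set against each other, the 2 KO clones differed in 2 of the 9 genes in polyA and in 2 of the 8 in rRNA-depleted libraries. In polyA, 1 gene was higher in sg5 (*Actg2*) and 1 lower (*Myl9*), where 2.11% and 2.67% of all tested genes were called. In rRNA-depleted libraries, 0 were higher in sg5 and 2 lower (*Myl9* and *Tpm2*), where 0.579% and 0.992% of tested genes were called. At an unadjusted *p* below 0.05, 2 genes (*Actg2* and *Tpm1*) were higher in sg5 in the latter, and DESeq2 called 0. Of all tested genes, 11.7% lay wholly above sg6 in sg5 and 13.8% wholly below in polyA, and 9.59% and 9.22% in rRNA-depleted libraries.

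The *Myl9* difference, sg5 against sg6, was a log2 fold change of −1.89 ± 0.36 (SE, adjusted *p* = 0.0187) in polyA and −3.10 ± 0.53 (SE, adjusted *p* = 0.0173) in rRNA-depleted libraries, both from edgeR, with every sg5 library below every sg6 library. The polyA call was lost without any of the sg5 libraries or without sg6 replicate 2 or 3 (adjusted *p* from 0.0521 to 0.0850), and the rRNA-depleted call without sg6 replicate 3 (0.0906) or when only these 2 groups were fitted (0.0765). *Tpm2* was lower in sg5 by a log2 fold change of −1.23 in rRNA-depleted libraries (SE 0.21, adjusted *p* = 0.0175), again without overlap, while its polyA difference of −0.38 (adjusted *p* = 0.375) did not pass. The rRNA-depleted *Tpm2* call was lost without sg5 replicate 1 or 2 or sg6 replicate 2 or 3 (adjusted *p* from 0.0508 to 0.0924) and when only these 2 groups were fitted (0.0864). *Actg2* was higher in sg5 by 0.71 in polyA (SE 0.17, adjusted *p* = 0.0472), and 6 of the 9 fits that leave out a library lost the call (highest adjusted *p* = 0.193). In rRNA-depleted libraries its difference of 1.09 did not pass (adjusted *p* = 0.582) except without sg5 replicate 1 (1.52, adjusted *p* = 0.0335).

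Between the clones, *Acta2* differed by −0.18 (95% confidence interval −0.47 to 0.11) in polyA and 0.06 (−0.64 to 0.76) in rRNA-depleted libraries. For *Tagln* the values were −0.04 (−0.58 to 0.51) and 0.68 (−0.32 to 1.68). Differences between clones within these intervals, which are before adjustment, are not excluded for either gene.

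**Figure D3:**
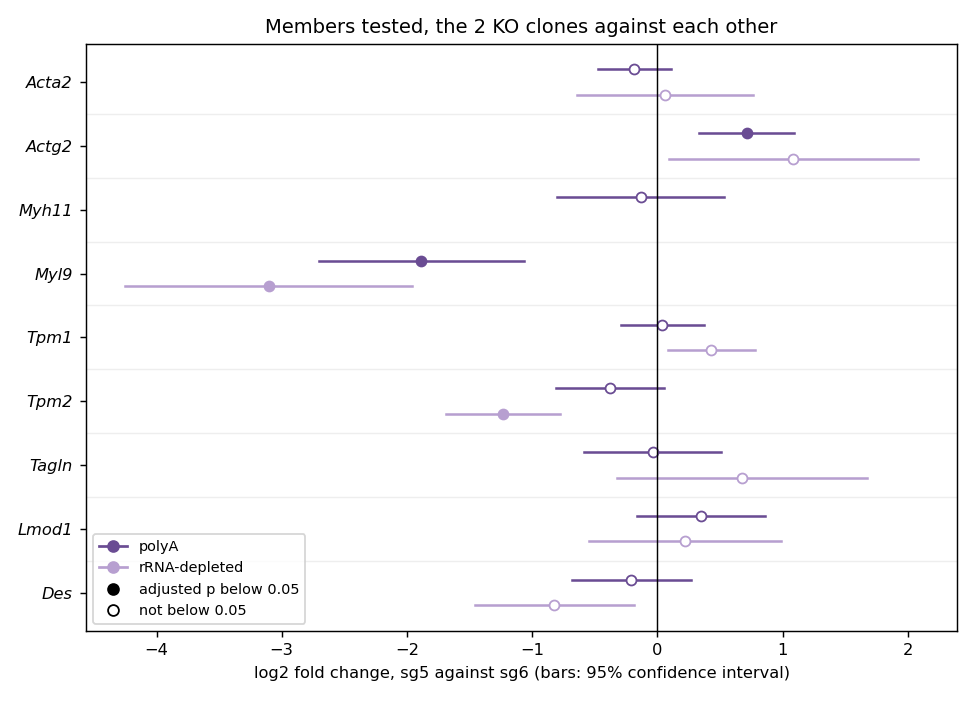
Log2 fold change of sg5 against sg6 for each tested gene in polyA and rRNA-depleted libraries, with 95% confidence intervals before adjustment; filled points passed an adjusted *p* of 0.05. *Myl9* lies to the left in both kinds of library (−1.89 and −3.10), *Tpm2* is filled in rRNA-depleted libraries alone (−1.23) and *Actg2* in polyA libraries alone (0.71).

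Per length, the set spanned several orders of magnitude. Divided by the length of merged exons, the mean WT level in polyA libraries was 169 ± 9.44 CPM per kb for *Acta2* (SD, n = 3), 82.6 ± 14.1 for *Tpm1*, 31.6 ± 6.16 for *Tpm2* and 2.42 ± 0.762 for *Lmod1*. *Des* (1.59 ± 0.359), *Actg2* (1.47 ± 0.206), *Tagln* (1.01 ± 0.210) and *Myl9* (0.790 ± 0.530) followed, then *Myh11* (0.0541 ± 0.0272) and *Cnn1* (0.0224 ± 0.0130). Among neighbours in this order, the libraries of *Lmod1* and *Des*, *Des* and *Actg2*, *Tagln* and *Myl9*, and *Myh11* and *Cnn1* overlapped. In the KO clones *Actg2* moved ahead of *Lmod1* and *Des*, at 17.5 ± 3.42 CPM per kb in sg5 and 10.7 ± 1.79 in sg6. *Myh11* and *Cnn1* kept the last places in all 3 groups. The order of *Acta2* and *Tpm1* depended on the length used, since *Tpm1* has long alternative exons: by the longest transcript, WT polyA levels were 182 CPM per kb for *Acta2* and 185 for *Tpm1*, and *Acta2* remained above *Tpm1* in both clones.

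The genes whose log2 CPM followed *Acta2* most closely over the 9 polyA libraries, out of 11519 searched, were *Dlg1* (Pearson *r* = 0.990), *Smad4* (0.989) and *Bin1* (0.988). These libraries fall into WT and KO, so *r* mainly describes that step and was given no test. Over the 9 rRNA-depleted libraries the values were 0.950, 0.662 and 0.691. Within the set, *Actg2* (0.944 in polyA, 0.955 in rRNA-depleted libraries) and *Tagln* (0.938 and 0.898) were the closest to *Acta2*.

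Other genes of smooth muscle contraction and adhesion, a list of 30, held genes called in each direction. Of 28 tested in polyA libraries, 11 rose and 4 fell in sg5, and 14 rose and 4 fell in sg6, with medians of 0.23 and 0.29 on the log2 scale. Of 25 tested in rRNA-depleted libraries, 4 rose and 3 fell in sg5 and 2 rose and 3 fell in sg6, with medians of 0.43 and 0.40. These counts are read against the shares of all tested genes given above. *Fhl1*, a LIM-only protein of muscle, rose from 1.51 to 2.08 CPM in the WT polyA libraries to 24.5 to 41.7 in those of sg5 and 41.7 to 47.6 in those of sg6, and its log2 fold change ran from 3.79 to 4.65 over both clones and both kinds of library (largest adjusted *p* = 0.00014 in edgeR).

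*Mylk*, the kinase that phosphorylates the product of *Myl9* and so switches contraction on, was among the genes that fell. It dropped from 35.4 to 64.1 CPM in WT polyA libraries to 5.12 to 9.86 in the sg5 clone and 2.54 to 3.24 in sg6. All KO libraries were below WT, with log2 fold changes from −4.45 to −2.82 over both clones and both kinds of library (largest adjusted *p* = 0.000345 in edgeR), and in polyA it was higher in sg5 than in sg6 by 1.29 (adjusted *p* = 0.0343). *Itga8*, the integrin alpha 8 chain of smooth muscle and mesenchyme, fell from 5.14 to 16.4 CPM in WT to at most 0.474 in the KO polyA libraries (−5.44 to −4.45, largest adjusted *p* = 0.00207), and the LIM protein gene *Csrp2* fell as well (−1.82 to −1.31, largest adjusted *p* = 0.0138). *Mylk* and *Itga8* overlap genes on the opposite strand and share 5.52% and 4.27% of their 31-base words with other transcripts.

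**Figure D4:**
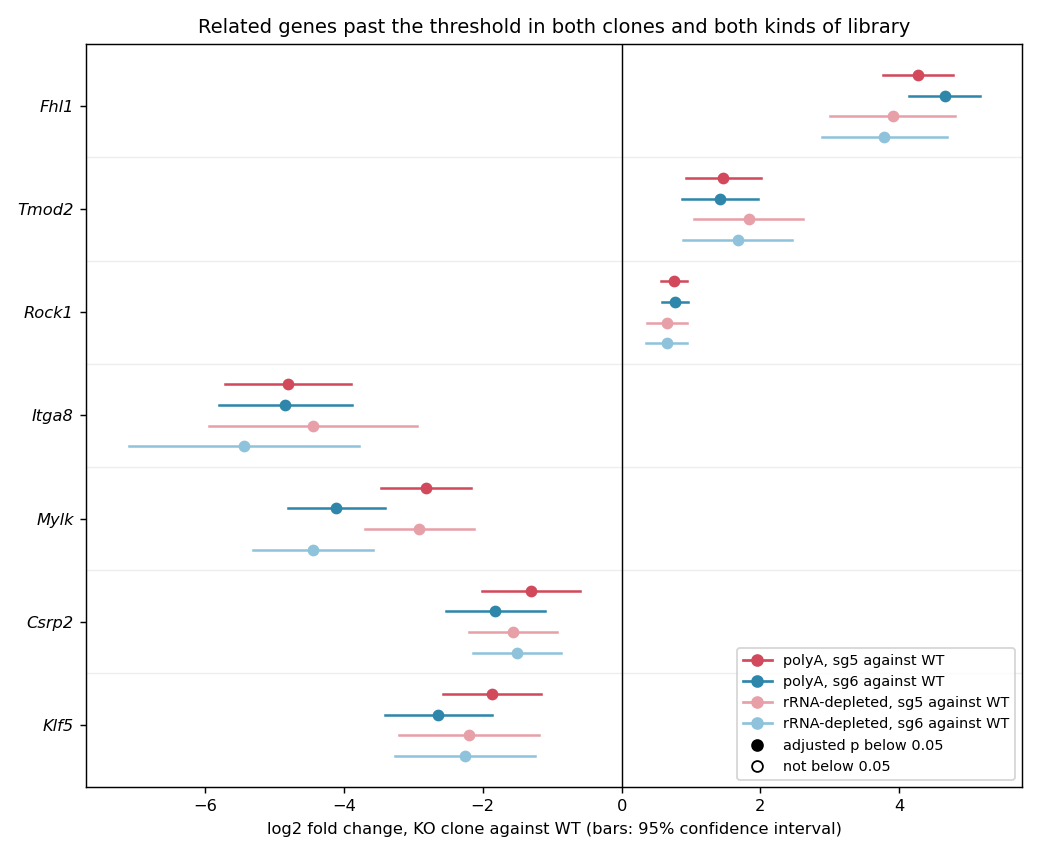
Log2 fold change, with 95% confidence intervals before adjustment, of the related genes named in the text that passed an adjusted *p* of 0.05 in the same direction in both clones and both kinds of library. *Fhl1*, *Tmod2* and *Rock1* lie to the right of 0 and *Itga8*, *Mylk*, *Csrp2* and *Klf5* to the left, with *Mylk* lower in sg6 than in sg5.

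Regulators of the set, a list of 28 that holds serum response factor, its partners and genes of the TGF-beta pathway, gave 7 genes higher and 3 lower of 27 tested in each clone in polyA libraries, and 1 higher and 1 lower of 26 in rRNA-depleted ones. Of all tested genes, 13.6% were higher and 13.4% lower in sg5 and 16.1% and 14.6% in sg6 in polyA, and 5.64% and 5.1%, then 3.56% and 4.03%, in rRNA-depleted libraries, so the lower regulators in polyA and both counts in rRNA-depleted libraries lay near those shares. *Rock1*, a serine/threonine kinase that acts on the actin cytoskeleton, was higher (0.65 to 0.77 on the log2 scale, largest adjusted *p* = 0.0169 in edgeR) and *Klf5*, a Krueppel-like factor, lower (−2.64 to −1.87, largest adjusted *p* = 0.0173) in both clones and both kinds of library. Of serum response factor and its partners in the list, *Srf*, *Myocd* and *Mrtfb* are given with values. *Mrtfa*, *Elk1* and *Elk4* were called in neither clone against WT, and *Elk3* was called lower in both clones in polyA libraries alone. *Srf* was at 73.7 ± 15.3 CPM in WT polyA libraries (SD, n = 3), 87.4 ± 8.94 in those of sg5 and 81.9 ± 4.79 in those of sg6 and passed in none of the comparisons with WT. *Myocd*, the partner most restricted to muscle, held 4 to 32 counts per polyA library and 0 or 1 in the rRNA-depleted ones. *Mrtfb* was higher in polyA libraries by 0.50 in sg5 and 0.55 in sg6 (adjusted *p* = 0.00111 and 0.000583 in edgeR) and did not pass in rRNA-depleted libraries (adjusted *p* = 0.0581 and 0.416). Nonmuscle counterparts of the set, a list of 17 actins, myosins, tropomyosins, calponins and tropomodulins, had 5 genes higher and 1 lower of 16 tested in sg5 and 7 and 1 in sg6 in polyA libraries, and 3 and 0, then 1 and 0, of 15 in rRNA-depleted libraries, to be read against the same shares. *Tmod2*, which caps actin filaments, passed throughout (1.41 to 1.83, largest adjusted *p* = 0.0220).

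Markers of other cell types that express some of these genes were summed in the same libraries. Of 8 pericyte markers, *Kcnj8* was at 0 in every group. Their polyA sums were 978 to 1132 CPM for WT, 1107 to 1183 for sg5 and 1325 to 1345 for sg6. The rRNA-depleted sums overlapped, at 199 to 231 CPM for WT, 223 to 446 for sg5 and 219 to 293 for sg6. Of 6 tested in polyA libraries, 1 was called higher and 0 lower in sg5, and 2 higher and 1 lower in sg6. Of 5 tested in rRNA-depleted libraries, 0 were called higher in either clone, 0 lower in sg5 and 1 lower in sg6. For the 7 endothelial markers, polyA sums were 4.37 to 5.61 CPM for WT, 11.7 to 17.1 for sg5 and 11.3 to 12.9 for sg6. Of 5 tested there, only *Tek* was called higher, in both clones. *Pecam1* was called lower in both clones and *Vwf* in sg6. These calls are read against the shares of all tested genes given above. The rRNA-depleted sums were 2.91 to 4.47 CPM for WT and 7.79 to 10.2 for sg6. Those of sg5, at 3.77 to 14.3, overlapped with WT. Only *Tek* was tested there, and it was called higher in sg5 but not in sg6. The 11 MPC markers summed to 6091 to 7006 CPM in WT, 7205 to 8639 in the sg5 clone and 9575 to 10520.3 in sg6 polyA libraries. Of these 11, all tested, 2 were higher and 3 lower (*Pdgfra*, *Thy1*, *Twist2*) in sg5 and 5 higher and 2 lower (*Pdgfra*, *Twist2*) in sg6. Of all genes tested in polyA, 13.6% were higher and 13.4% lower in sg5 and 16.1% and 14.6% in sg6, so the 2 higher in sg5 and 2 lower in sg6 lay near those shares. Of 10 tested in rRNA-depleted libraries, 2 were higher in sg5 and 3 in sg6 and 0 lower, against 5.64% and 5.1%, then 3.56% and 4.03%, of all tested genes. The part of these genes in the results on the contractile set was not tested.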

How the data were processed

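RNA was measured in 18 libraries of C3H/10T1/2 cells, 3 per line (WT, sg5, sg6) and kind. Groups and replicate numbers came from the sample titles, in which G7 marks sg5 and B10 marks sg6. For polyA libraries, the authors ran Salmon on mm10 known genes with tximport and deposited estimated counts per gene, which are whole numbers and were left as they are by rounding. Reads of rRNA-depleted RNA were aligned by the authors with STAR (2.27.10a in the processing notes), and the deposited read counts, for genes and 3725827 transposable element loci, came from TElocal, which divides a read with several alignments among them. The Salmon version is 0.8.2 in the processing notes. Strand settings were not given in the sources used here.

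Counts were tested with edgeR 4.0.16 in R 4.3.3 (filterByExpr with minimum count 10 and minimum total count 15, TMM scaling, quasi-likelihood test, 1 fit per kind over its 9 libraries, no block, Benjamini-Hochberg adjustment over 15480 genes in polyA and 56086 features, 13303 of them genes, in rRNA-depleted libraries). Log2 CPM used a prior count of 2. The alternatives were DESeq2 1.42.0, median-of-ratios factors, no filter, a minimum of 10 counts in each library, fits of only the 2 groups compared, counts thinned to the smallest library, genes alone, a log2 fold change beyond 1, the replicate block and leaving out each library. The steps were tested on simulated data. Counting error grows at low counts, and library totals are given with the results.

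Libraries of a group were not identical (chi-square per gene 23.9 to 234, where sampling noise gives about 1). Nothing says whether they came from separate cultures. Deviations of same-numbered libraries from their group means correlated above 0.1 in every pair for rRNA-depleted WT and sg6 (Pearson *r* across genes 0.114 to 0.544), polyA sg5 and sg6 (0.277 to 0.373) and rRNA-depleted sg5 and sg6 (0.174 to 0.638). The numbers in the titles may therefore pair those libraries. The main fits and the calls given above did not use this pairing, and the replicate block was run as an alternative. With the block, the polyA calls of sg5 against sg6 were kept for *Actg2* (0.71, adjusted *p* = 0.0226) and *Myl9* (−1.86, adjusted *p* = 0.0155) in edgeR.

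The 10 genes and the other lists were chosen with earlier results of these data known. Named beside them were *Atrx*, list genes that passed in both clones and both kinds of library in the same direction (at most 4 per list and direction), and the 3 genes closest to *Acta2*. *Srf*, *Myocd*, *Mrtfa*, *Mrtfb*, *Elk1*, *Elk3*, *Elk4*, *Pcsk7*, *Tek*, *Pecam1*, *Vwf*, *Kcnj8*, *Pdgfra*, *Thy1*, *Twist2*, *Tnni2*, *Tnnt3* and *Myh3* were named outside this rule. Positions came from GENCODE M21 (GRCm38) and promoters from RefSeq. Plots used matplotlib 3.10.9 (Python 3.11.15). A gene counted in the related lists is not reported here by name.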

Additional observations from a re-analysis of the deposited data

Results flagged for a closer look

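The KO clones differed from each other in 4 results of the contractile set, by edgeR's test of sg5 against sg6. *Myl9* was lower in sg5 by a log2 fold change of −1.89 in polyA and −3.10 in rRNA-depleted libraries. *Tpm2* was lower in sg5 by −1.23 in rRNA-depleted libraries. *Actg2* was higher in sg5 by 0.71 in polyA libraries. Each clone is a single line, so the sgRNA and the clone cannot be told apart.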

How the results depend on the processing

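Of 51 gene-level results, 17 passed, and none of these changed direction in any fit run. All KO against WT calls in polyA held throughout. In rRNA-depleted libraries, leaving out 1 library ended sg6 calls of *Acta2*, *Actg2* and *Myl9*, as given above. The count of lower genes in sg5 against WT, 0 in polyA, was 2 with the replicate block (*Des* and *Tpm2*), 1 in DESeq2 and 0 to 1 with a library left out. In rRNA-depleted libraries it was 1 (*Tpm2*) with the block and with genes alone. Higher genes in sg6 against WT numbered 5 when only the 2 groups were fitted and 0 to 5 with a library left out (0 without WT replicate 3). For sg5 against sg6, the polyA count of higher genes was 0 when only these groups were fitted and beyond a log2 fold change of 1, and 0 to 1 with a library left out, as was the lower count. In rRNA-depleted libraries the lower count was 1 with at least 10 counts in every library, 0 with only these groups and 0 to 2 with a library left out, and the higher count 0 to 1. The cause was not tested.

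Only uncalled values turned sign. With thinned counts these were *Myh11* (−0.40) and *Tpm2* (−0.0014) in sg6 against WT and *Myh11* in sg5 against sg6 (0.013) in polyA, and *Des* in sg6 against WT (−0.029) in rRNA-depleted libraries. With a library left out, polyA values for sg5 against WT ran from −0.31 to 0.27 for *Myh11*, −0.088 to 0.83 for *Myl9* and −0.12 to 0.35 for *Lmod1*. For sg6 against WT they ran from −0.18 to 0.41 for *Myh11*, −0.077 to 0.20 for *Tpm2* and −0.44 to 0.0031 for *Lmod1*, and for sg5 against sg6 from −0.18 to 0.23 for *Tagln* and −0.10 to 0.15 for *Tpm1*. In rRNA-depleted libraries they ran from −0.052 to 0.26 for *Des* in sg6 against WT, and from −0.19 to 0.43 for *Acta2* and −0.056 to 0.44 for *Lmod1* in sg5 against sg6. The block changed no call but those named here and that of *Tpm1* in rRNA-depleted sg6. Same-numbered libraries did not correlate above 0.1 in every pair for polyA WT and sg5 (*r* 0.026 to 0.264), polyA WT and sg6 (0.098 to 0.430) and rRNA-depleted WT and sg5 (−0.23 to 0.402). PolyA WT and sg6 fell just short, so whether the numbers pair them was not settled. Median-of-ratios scaling moved the median of all genes in rRNA-depleted sg5 from 0.080 to 0.126. Depth limits *Cnn1* and *Myh11*, and in rRNA-depleted libraries *Myl9* and WT *Actg2*.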

Other observations

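Genes of the striated muscle sarcomere, a list of 31, mostly did not share the direction of the smooth muscle actins. Of 21 tested in polyA libraries, 0 rose and 10 fell in sg5 and 1 rose and 8 fell in sg6, with median log2 fold changes of −0.81 and −0.79. Of all tested genes, 13.6% rose and 13.4% fell in sg5 and 16.1% and 14.6% in sg6. The genes that fell in both clones include the fast troponins *Tnni2* and *Tnnt3* and the embryonic myosin *Myh3*. Their summed level was low in all lines, with 40.3 to 44.9 CPM in WT, 26.6 to 28.7 in the sg5 clone and 29.4 to 35.3 in the sg6 clone. Of 12 tested in rRNA-depleted libraries, 1 rose and 1 fell in sg5 and 1 rose and 0 fell in sg6, against 5.64% and 5.1%, then 3.56% and 4.03%, of all tested genes.

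Among the lists of other cell types, the epithelial genes *Cdh1* and *Krt14* fell in both clones and both kinds of library. *Cdh1*, the epithelial cadherin, was at 2.51 to 4.82 CPM in WT polyA libraries, 0.827 to 1.57 in sg5 and 0.266 to 0.562 in sg6 (log2 fold change −3.82 to −1.64 over both kinds, largest adjusted *p* = 0.00693 in edgeR). *Krt14*, a basal keratin, held 16 to 138 counts in the WT polyA libraries and 0 to 9 in the KO ones. The MPC markers were called in both directions in polyA libraries, while 0 were called lower in rRNA-depleted ones. *Eng* and *Itgb1* rose throughout, with *Eng* at 17.1 to 21.4 CPM in the polyA libraries of WT, 84.8 to 95.3 in those of sg5 and 58.0 to 70.9 in those of sg6. In polyA libraries *Pdgfra* fell by 0.61 in sg5 and 0.92 in sg6 on the log2 scale (adjusted *p* = 0.0213 and 0.00249 in edgeR), and *Twist2* fell by 0.51 and 0.91 (adjusted *p* = 0.0399 and 0.00266), and neither passed in rRNA-depleted libraries. *Thy1*, a surface marker of mesenchymal cells, was at 0.803 to 1.098 CPM in WT, 0.246 to 0.370 in the sg5 clone and 119 to 154 in sg6 polyA libraries, at log2 fold changes of −1.73 and 7.03 (adjusted *p* = 0.000268 and 7.64e-08 in edgeR). The 6 leukocyte markers summed to 4.54 to 6.52 CPM over all polyA libraries.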
